A study of Rattus norvegicus with 6 samples.

Results

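The fibrillar collagen genes Col1a1, Col1a2 and Col3a1 were examined in 6 rat RNA sequencing libraries. Of these, 3 carry the label primary keratinocyte progenitors and 3 the label limbal niche. They were taken by Ensembl identifier, ENSRNOG00000003897 for Col1a1, ENSRNOG00000011292 for Col1a2 and ENSRNOG00000003357 for Col3a1. All 3 identifiers were found among the 20159 genes of the deposited table. The pairing of these identifiers with the gene symbols was given with the selection and was not tested against a reference table. Keratinocyte progenitors are the dividing cells of the epidermis, and the limbal niche is the stromal and cellular setting that surrounds corneal epithelial stem cells. The study asked whether such a niche turns keratinocyte progenitors into corneal epithelium, and its design describes 3 culture media on Matrigel, some of them holding medium conditioned by niche cells. Every library is labelled as epidermis, without strain, age, sex, genotype or culture medium. Whether the limbal niche libraries hold niche cells or keratinocytes grown in niche-conditioned medium is likewise not stated in the labels.

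Fibrillar collagens are the rope-like proteins of connective tissue. Type I collagen is built from alpha-1 chains, encoded by Col1a1, and an alpha-2 chain, encoded by Col1a2. Type III collagen is a homotrimer of the chain encoded by Col3a1 and is laid down beside type I in extensible tissue such as the dermis. Fibroblasts and other stromal cells make most of both, so their transcripts are widely used to show stromal cells or matrix production, and keratinocytes make little. In bulk RNA, a difference in the number of collagen-producing cells and a difference in transcript per cell cannot be told apart.

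A stretch of the Col1a2 promoter is shown because a RefSeq promoter entry was matched for only 1 of the 3 genes, Col1a2. The level of this gene relative to Col1a1 is described below. The stretch is the first 100 bases of that entry at chr4:33518307-33518406 on the plus strand of GRCr8, written 5′ to 3′. Capitals mark the letters TATAAA, and CCAAT as it reads on the opposite strand (ATTGG).
Col1a2: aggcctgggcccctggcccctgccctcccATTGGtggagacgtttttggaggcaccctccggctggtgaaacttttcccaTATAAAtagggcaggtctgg
The CCAAT letters ended 217 bases and the TATAAA letters 165 bases before the RefSeq start of the gene. On either strand, and in the same 100-base window of 33469 rat promoter entries, CCAAT was present in 14.5% and TATAAA in 5.43%. The 2 motifs do not overlap each other. These are matches of letters and were not tested as binding sites.

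The libraries were alike in depth, with 17678076 to 18237668 reads, but did not group by label. Over 12085 genes, the Pearson correlation of log2(FPKM + 1) was higher for keratinocyte progenitor 1 with limbal niche 2 (0.962) and 3 (0.968) than with its own group (0.927 and 0.923). Likewise limbal niche 1 was nearer to keratinocyte progenitor 2 (0.925) and 3 (0.931) than to the rest of limbal niche (0.887 and 0.883). Keratinocyte progenitor 2 and 3 were the most alike pair, at 0.995. They still differed by more than sampling noise (mean chi-square 4.35 per gene, where sampling alone gives 1). The lowest value of any other pair was 78.1. They are labelled as separate biological replicates and were counted as 2 samples. The chi-square cannot tell such replicates from repeat preparations of the same RNA. These correlations are across genes, which are not independent replicates. Group differences are therefore given with and without limbal niche 1 or keratinocyte progenitor 1.

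Col1a1 was the most abundant of the 3 collagens in every library. Its level, in FPKM (reads or fragments divided by gene length and by the library total), was 53.99, 66.6 and 70.3 in keratinocyte progenitor 1, 2 and 3. In limbal niche 1, 2 and 3 it was 1344, 32.1 and 30.5 FPKM. Limbal niche 1 thus stood 19.1 times above the next library, keratinocyte progenitor 3, and 44.1 times above limbal niche 3, the lowest library of its own group. Limbal niche 2 and 3 both lay below all 3 keratinocyte progenitor libraries, so the limbal niche values enclose those of the other group. The mean was 63.6 ± 8.56 FPKM in keratinocyte progenitors and 469 ± 758 FPKM over the limbal niche libraries (SD, n = 3 each), while the medians were 66.6 and 32.1 FPKM, in the opposite order.

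The depth behind Col1a1 was high. It had 138431 reads in limbal niche 1, or 0.783% of that library, and 3207 to 7278 reads in the others. The 95% counting interval (exact Poisson, covering counting error only, since no molecular identifiers are described) was 1337 to 1351 FPKM in limbal niche 1. In order of level, limbal niche 3 (29.5 to 31.6 FPKM) and limbal niche 2 (31.1 to 33.2 FPKM) had overlapping intervals, and no other neighbouring libraries did. Col1a1 ranked 43rd by FPKM among all 20159 genes in limbal niche 1. Its rank in the other 5 libraries was between 1220 and 2971.

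Col3a1 was also highest in limbal niche 1, by a smaller margin. Its level was 40.2, 15.5 and 13.6 FPKM in keratinocyte progenitor 1, 2 and 3, and 338, 20.7 and 16.5 FPKM in limbal niche 1, 2 and 3. Limbal niche 1 stood 8.41 times above keratinocyte progenitor 1, the next library, and 16.3 and 20.4 times above limbal niche 2 and 3. Keratinocyte progenitor 1 in turn was 2.96 times above keratinocyte progenitor 3, the lowest of the 6. The 2 groups overlapped, since limbal niche 2 and 3 lay between the lowest and the highest keratinocyte progenitor library. The mean was 23.1 ± 14.9 FPKM in keratinocyte progenitors and 125 ± 184 FPKM over the limbal niche libraries (SD, n = 3 each), with medians of 15.5 and 20.7 FPKM.

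Reads for Col3a1 numbered 28460 in limbal niche 1 and 1148 to 3435 elsewhere. Limbal niche 3 (15.7 to 17.4 FPKM) and keratinocyte progenitor 2 (14.7 to 16.3 FPKM) were neighbours whose counting intervals overlapped. Every other pair of neighbours in the order was separated by more than counting error. Col3a1 ranked 226th among all genes by FPKM in limbal niche 1 and between 2221st and 5583rd in the other libraries.

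Col1a2 was the least abundant of the 3 collagens in all 6 libraries, and was scarce outside limbal niche 1. Its level reached 0.449, 0.347 and 0.352 FPKM in keratinocyte progenitor 1, 2 and 3, while limbal niche 1, 2 and 3 held 7.76, 0.208 and 0.161 FPKM. These values rest on 36, 28 and 28 reads in the former and 614, 17 and 13 reads in the latter. The order of libraries resembled that of Col1a1, with limbal niche 1 far above the rest, 17.3 times the next library, and limbal niche 2 and 3 lowest. Among the 5 other libraries the counting intervals overlapped between all neighbours. They ran from 0.314 to 0.621 FPKM in keratinocyte progenitor 1, the highest of the 5, and from 0.0857 to 0.275 FPKM in limbal niche 3, the lowest. The mean was 0.382 ± 0.0574 FPKM in keratinocyte progenitors and 2.71 ± 4.37 FPKM over the limbal niche libraries (SD, n = 3 each), and the medians were 0.352 and 0.208 FPKM.

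**Figure D1:**
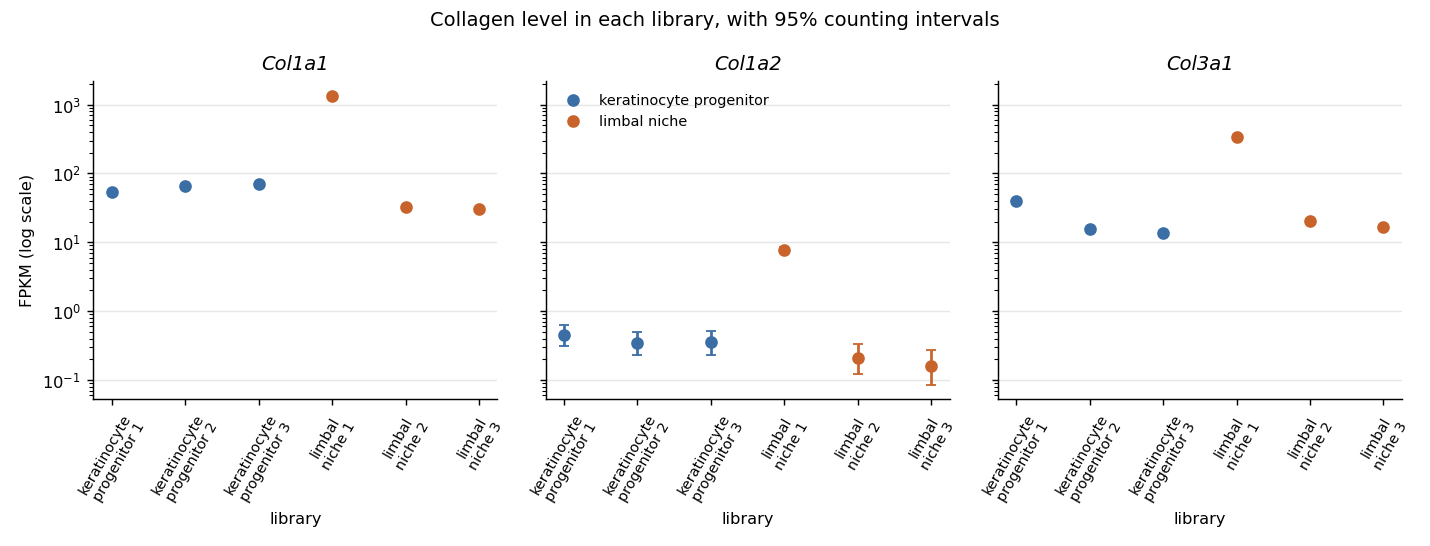
FPKM on a log scale for Col1a1, Col1a2 and Col3a1 in each of the 6 libraries, with points coloured by labelled group and bars showing 95% exact Poisson counting intervals, which are smaller than the points for Col1a1 and Col3a1. Limbal niche 1 is the highest library for all 3 genes, at 1344, 7.76 and 338 FPKM.

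Col1a1 and Col3a1 were highest in limbal niche 1, where 23.1% of the 12085 tested genes were highest. Col1a2 was highest there too, but is not set against that share, for the reason given below. Each of the 3 collagens was many times above the other libraries there. Of the 3, Col1a1 alone was at least 10 times above the highest other library on the FPKM + 1 scale. That margin was reached by 12 of the 12085 genes (0.0993%). Col1a1 had the widest margin of all tested genes in that library, at 18.9 times. Col3a1 was 16th, at 8.23 times. Col1a2 is not ranked here, because it was among the tested genes through limbal niche 1 alone. Its mean over the other 5 libraries was 0.303 FPKM against a filter of 1 FPKM. On FPKM without the added 1, limbal niche 1 was 17.3 times above the next library for Col1a2 and 19.1 times for Col1a1. The margin of at least 10 times on FPKM + 1 was reached by 1 gene in keratinocyte progenitor 1 and 3 genes in limbal niche 2. It was reached by 0 genes in each of keratinocyte progenitor 2, keratinocyte progenitor 3 and limbal niche 3. These ranks were computed after the values of limbal niche 1 had been seen and are a description of that library. Together the 3 collagens took 0.948% of the reads of limbal niche 1, 0.0463% to 0.0508% of the reads in the 3 keratinocyte progenitor libraries, and 0.0287% and 0.0257% in limbal niche 2 and 3.

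**Figure D2:**
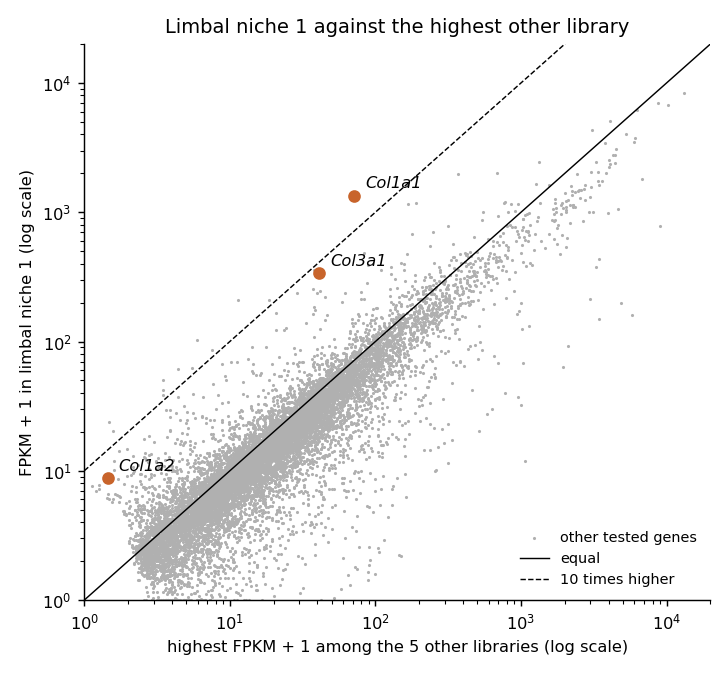
FPKM + 1 in limbal niche 1 (vertical axis) against the highest FPKM + 1 among the 5 other libraries (horizontal axis), both on log scales, for the 12085 tested genes in grey and the 3 collagens in orange. The solid line marks equal values and the dashed line values 10 times higher in limbal niche 1. Col1a1 lies above the dashed line, and Col3a1 and Col1a2 lie below it.

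None of the 3 collagens differed between the labelled groups by the test used. Limma on log2(FPKM + 1), with Benjamini-Hochberg adjustment over 12085 genes, called 0 of the 3 and 0.0% of all tested genes. The lowest adjusted p of any gene was 0.786 (limma), and 707 genes, 5.85%, had an unadjusted p under 0.05. For Col1a1 the log2 fold change, limbal niche minus keratinocyte progenitor, was 0.80 with a standard error of 1.40 and a 95% interval from -2.54 to 4.14 (limma adjusted p = 0.919). For Col3a1 it was 1.23 ± 1.14 (standard error), with an interval from -1.48 to 3.95 (limma adjusted p = 0.825). The value for Col1a2 was 0.74 ± 0.78, with an interval from -1.11 to 2.59 (limma adjusted p = 0.846). With 0.1 added to FPKM in place of 1, it was 0.84 ± 1.37, with an interval from -2.43 to 4.10 (limma adjusted p = 0.910). The narrower interval of Col1a2 in the main test therefore rests on adding 1 to low values. Col1a2 entered this test through limbal niche 1 alone because of the filter on the mean. The median log2 fold change over all tested genes was -0.06. The exact two-sided permutation p was 1.0 for Col1a1, 1.0 for Col1a2 and 0.5 for Col3a1, where 3 libraries against 3 cannot go below 0.1. Nor did the values of the 2 groups separate without overlap for any of the 3 collagens, which they did for 11.9% of tested genes.

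The intervals were narrower without limbal niche 1. With that library left out, the log2 fold change turned negative for Col1a1 and Col3a1. For Col1a1 it was -0.99, with an interval from -1.45 to -0.54, in a fit that called 0.0% of genes (limma adjusted p = 0.445). Its unadjusted limma p was 0.00185, and 10.8% of tested genes had one under 0.05 in that fit. Col3a1 was at -0.14, with an interval from -1.30 to 1.02 (limma adjusted p = 0.896). Col1a2 was at -0.22, with an interval from -0.71 to 0.26 (limma adjusted p = 0.604), but this fit kept the genes filtered on all 6 libraries, and Col1a2 would not reach the filter on the 5 that remain. The Col1a1 mean of limbal niche 2 and 3 was 31.3 FPKM against 63.6 FPKM in keratinocyte progenitors. That of Col3a1 was 18.6 against 23.1 FPKM, and that of Col1a2 0.185 against 0.382 FPKM, from 13 to 36 reads in each library. Adding 1 to values as low as those of Col1a2 makes their log2 fold change smaller.

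With both libraries numbered 1 left out, Col1a1 was lower in limbal niche, at a log2 fold change of -1.10 with an interval from -1.40 to -0.80 (limma adjusted p = 0.0158). In that fit 14.9% of tested genes were called, including 7.75% that were called as lower in limbal niche. It compares the nearly alike keratinocyte progenitor 2 and 3 with limbal niche 2 and 3. Like the fit without limbal niche 1, it leaves out libraries whose values had already been seen to stand apart. The p-values of both fits therefore describe the libraries that remain and do not test the labelled groups. With all 6 libraries the Col1a1 estimate was 0.80, with an interval from -2.54 to 4.14. Col1a2, again below the filter in the libraries that were fitted, was at -0.19 (limma adjusted p = 0.395). Col3a1 was at 0.33 (limma adjusted p = 0.223), so once limbal niche 1 was left out the direction for Col3a1 depended on keratinocyte progenitor 1, its highest keratinocyte library. Samples are labelled as biological replicates, with no word on separate animals or cultures, so p-values measure the spread between these samples, which may be technical.

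**Figure D3:**
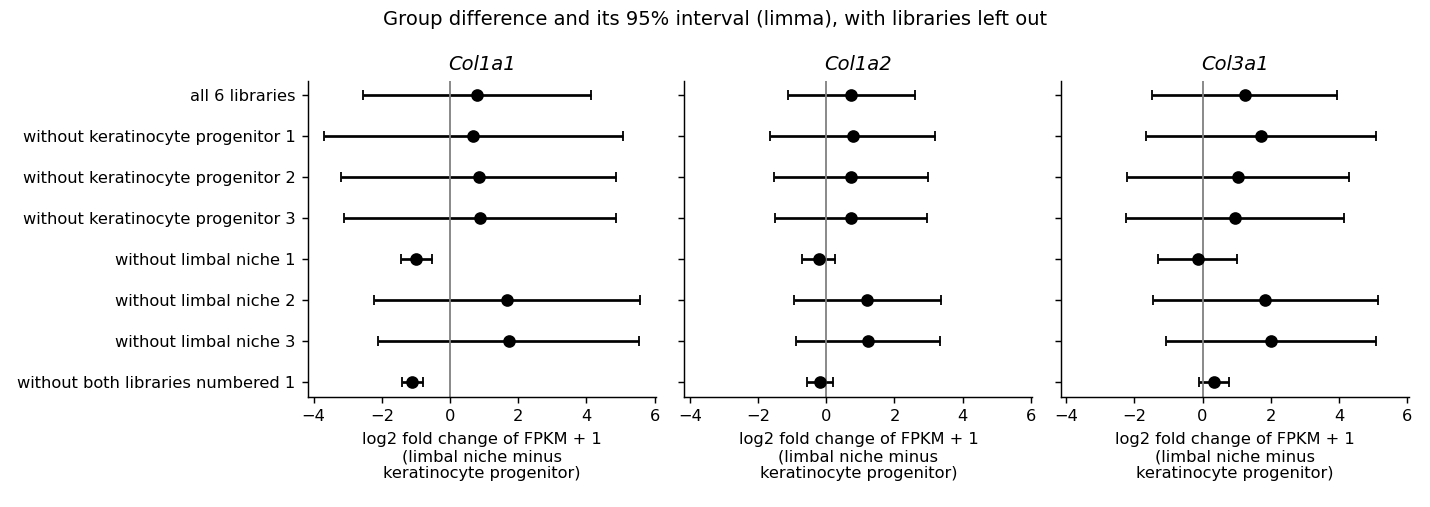
Log2 fold change of FPKM + 1, limbal niche minus keratinocyte progenitor, for each collagen, with limma 95% intervals as bars, for all 6 libraries and with libraries left out. Without limbal niche 1 the estimates are -0.99 for Col1a1, -0.22 for Col1a2 and -0.14 for Col3a1, against 0.80, 0.74 and 1.23 with all libraries. Adding 1 makes the Col1a2 differences smaller, since its values were under 1 FPKM outside limbal niche 1.

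The ratio of Col1a2 to Col1a1 varied less than the levels of both, whose wide range came from limbal niche 1. Col1a2 FPKM was 0.831%, 0.52% and 0.501% of Col1a1 FPKM in keratinocyte progenitor 1, 2 and 3. It was 0.577%, 0.648% and 0.528% in limbal niche 1, 2 and 3. The highest of these ratios was 1.66 times the lowest, whereas Col1a1 FPKM spanned 44.1 times and Col1a2 FPKM 48.2 times. Without limbal niche 1 the levels spanned 2.31 and 2.79 times, and the highest and lowest ratios stayed the same. The ratios are loosely measured outside limbal niche 1. In limbal niche 3, with 13 Col1a2 reads, the interval ran from 0.281% to 0.904%. The exact Clopper-Pearson intervals, converted to ratios, ranged from 0.532% to 0.625% in limbal niche 1 and overlapped the intervals of all other libraries. The level of Col1a2 per length was therefore 120 to 200 times below that of Col1a1 in every library, although the products of both genes are chains of the same collagen. How the authors assigned reads to these genes is not given in the sources used here, and the part of read assignment in this ratio was not tested.

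The ratio of Col3a1 to Col1a1 varied more and did not follow the labels. Col3a1 FPKM was 74.5% of Col1a1 FPKM in keratinocyte progenitor 1, 64.3% in limbal niche 2 and 54.2% in limbal niche 3. In limbal niche 1 and keratinocyte progenitor 2 and 3 it was 25.1%, 23.2% and 19.3%. The counting intervals did not overlap between any library of the former 3 (lowest bound 50.9%) and any of the latter 3 (highest bound 25.5%). These 2 sets were formed by sorting on this ratio after its values had been seen, so the gap is a description and not a test. Over all tested genes, the former 3 libraries correlated at 0.958 to 0.968 with each other and at 0.883 to 0.939 with the latter 3. Among the latter 3 the range was 0.925 to 0.995, which overlaps the range between the sets. Its top, 0.995, came from the pair of keratinocyte progenitor 2 and 3 alone. Pairing these 2 with limbal niche 1 gave 0.925 and 0.931, below the 0.939 and 0.933 given by limbal niche 3. The latter 3 were therefore not a set apart by this measure. Limbal niche 1 had the most collagen transcript by far. Its ratio of Col3a1 to Col1a1 was close to that of keratinocyte progenitor 2 and 3. The intervals, in the same order, were 24.8% to 25.5%, 21.9% to 24.6% and 18.1% to 20.5%.

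**Figure D4:**
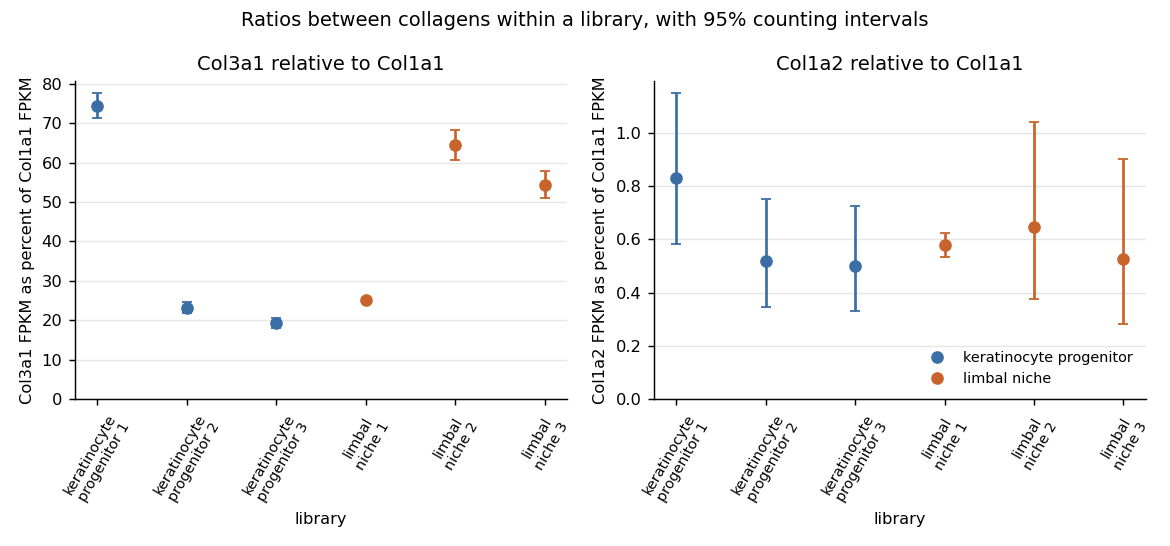
Col3a1 FPKM (left) and Col1a2 FPKM (right) as a percent of Col1a1 FPKM in each library, coloured by labelled group, with 95% intervals from the read counts. The left panel shows 3 libraries at 54.2% to 74.5% and 3 at 19.3% to 25.1%. The right panel shows ratios of 0.501% to 0.831%, with overlapping intervals whose bounds run from 0.281% to 1.15%.

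Genes with the most similar pattern were sought by Pearson correlation over the 6 libraries between log2(FPKM + 1) and the mean standardised value of the 3 collagens. Col1a2 was part of that mean, although it passed the filter of 1 FPKM through limbal niche 1 alone. Of 6634 other genes averaging 10 FPKM or more, 124 correlated at 0.9 or higher and 162 at -0.9 or lower. The highest was 0.993, for ENSRNOG00000021682, at 23.6, 23.0 and 23.5 FPKM in keratinocyte progenitor 1, 2 and 3 and 38.2, 21.1 and 21.6 FPKM in limbal niche 1, 2 and 3. Next came ENSRNOG00000014453 at 0.992, with 158, 132 and 139 FPKM in keratinocyte progenitors and 292, 137 and 137 FPKM in limbal niche. Most opposite was ENSRNOG00000009756 at -0.997, with 25.1 FPKM in limbal niche 1 and 28.2 to 29.0 FPKM elsewhere. ENSRNOG00000048256 followed at -0.995, with 8.85 FPKM in limbal niche 1 and 13.8 to 15.7 FPKM elsewhere. With 1 library so far from the others, such a correlation reflects mostly the place of limbal niche 1, and the sizes of these differences were small beside those of the collagens. Genes are given by identifier, since 0 of the 20159 identifiers were paired with a symbol here. Collagen-modifying enzymes, fibril-bound proteoglycans, and markers of stromal, keratinocyte, corneal and other cells (13 lists) were for that reason not analysed here, and the part of other cell types in the collagen levels was not tested.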

How the data were processed

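Polyadenylated RNA was sequenced from 6 libraries, grouped by sample title. Table columns were matched through the column names in the sample descriptions. The authors deposited FPKM values per Ensembl gene, per the labels. FastQC, Trim Galore and DESeq2 are named, per the submitters' processing notes. The aligner, counter, annotation, genome build and strand use were not given in the sources used here.

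Whole reads were recovered from the FPKM values by finding library totals and the smallest whole gene length that made all 6 values whole (absolute tolerance 1e-09, relative 1e-12), which succeeded for 20159 of 20159 genes. The method was tested on simulated data. Where all 6 reads of a gene share a divisor, its reads come out too small. Reads are used for counting intervals and for limma-voom, a test of reads, as an alternative.

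The main test was limma 3.58.1 (R 4.3.3) on log2(FPKM + 1) with group as the only term, a mean-variance trend and p-values adjusted by Benjamini-Hochberg. It ran on genes averaging 1 FPKM or more, with calls at an adjusted p under 0.05. Changes of low genes are understated on this scale. The script was tested on simulated reads. The members, gene lists and tests were chosen with earlier results of these data known. Other identifiers printed are the 2 most and 2 least correlated with the collagens among genes averaging 10 FPKM or more.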

Additional observations from a re-analysis of the deposited data

How the results depend on the processing

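No collagen was called with all 6 libraries under any alternative run: another pseudocount, filter, scaling or variance setting, library weights, a replicate block, or limma-voom on recovered reads, which called 0 genes. A filter at 5 FPKM left Col1a2 untested. The standard error of the Col1a2 log2 fold change was 0.78 in the main test, 1.37 with a pseudocount of 0.1 and 1.49 with limma-voom. With library weights the Col1a1 log2 fold change was -0.29, against 0.80. Leaving out 1 library in turn, it ran from -0.99 to 1.72, that of Col1a2 from -0.22 to 1.24 and that of Col3a1 from -0.14 to 2.00, the lowest each without limbal niche 1. Without keratinocyte progenitor 1 the log2 fold changes of Col1a1, Col1a2 and Col3a1 were 0.69, 0.77 and 1.70. Without both libraries numbered 1, Col1a1 was at -1.10 and Col1a2 at -0.19. Called genes numbered 0 in the main analysis, 11 without a filter on low values (the cause was not tested), 1804 without both libraries numbered 1, and 0 to 2 leaving out 1 library, the 2 without limbal niche 3. The labels do not say that replicate numbers pair libraries, so the numbers were not taken as pairs. Same-numbered libraries deviated from their group means in opposite directions (r = -0.48, -0.35 and -0.25). Deviations cancel within each group, so these values depend on each other and cannot exclude pairing. With the replicate block the fold changes were 0.80, 0.74 and 1.23 and 0 genes were called, with 328 against 707 at an unadjusted p under 0.05. With library weights that count was 3693, with a lowest limma adjusted p of 0.0504. Between scalings the median log2 fold change of all genes ran from -0.12 to 0.01. Depth limits Col1a2, with 13 to 36 reads outside limbal niche 1.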
